A study of Mus musculus with 7 samples.

Results

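The 10 keratin genes described here are Krt5, Krt7, Krt8, Krt14, Krt15, Krt17, Krt18, Krt19, Krt23 and Krt80. They were chosen by name from the 54 keratin genes among the 32285 genes counted in the libraries. In gentamicin-damaged mouse utricles the simple epithelial keratins Krt8 and Krt18 were abundant, and the keratins of stratified and injured skin were close to the limit of detection. None of the 8 with enough reads to be tested passed the limits for differential expression after Fos overexpression. Among these 8, the largest difference was that of Krt19, with a mean level in the 4 Fos-overexpressing libraries that was 2.05-fold that of the 3 controls.

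Keratins form the intermediate filaments of epithelial cells. Each filament is built from pairs of a type I and a type II keratin, so the genes of both types are usually expressed together. Krt8 (type II) and Krt18 (type I) are the primary pair of simple epithelia, to which Krt7 (type II) and Krt19 (type I) are added in many ducts and linings. Krt5 and Krt14 are the pair of basal cells in stratified epithelia such as epidermis, Krt15 is a further basal type I keratin, and Krt17 is a type I keratin of skin appendages that is induced in wounded skin. Krt23 (type I) and Krt80 (type II) belong to neither set and were kept apart. Keratin filaments end at desmosomes between cells and at hemidesmosomes on the basement membrane.

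The libraries were made from utricle explants of wild-type C57BL/6J P2 mice, with 12 utricles pooled per library, so the spread between libraries is one between pools. All explants were damaged with 2 mM gentamicin for 24 h and were analysed 5 days after injury. The Gent+Fos OE group (4 libraries) also received the AAV-PHP.eB Fos vector for 48 h, in which a CMV promoter drives mouse Fos in whichever cells it enters, and the Gent group (3 libraries) is labelled gentamicin control. The labels name no virus for the Gent utricles, the study's text speaks of a control AAV, and the names of the Gent count columns hold letters that are also short for shRNA. Which virus they received, if any, is not settled, and the meaning of each fold change, that of Fos included, depends on it. The study's methods name 3 replicates per condition where the labels list 4 and 3. No undamaged utricles were analysed here, so the comparison does not show what gentamicin does to keratins. With the virus of the Gent utricles unsettled, effects of Fos and of the vector cannot be told apart.

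Each library held 27879889 to 34335214 counted reads. Fos, the overexpressed gene, was at 149 to 167 CPM (read counts scaled to a common library size) in Gent+Fos OE and at 34.6 to 40.6 CPM in Gent, which matches the labels. Gent replicate 2 stood apart, with a Spearman's rho of -0.50 between gene length and its deviation from the mean of the 7 libraries. The rho was 0.15 and -0.22 in Gent replicates 1 and 3 and 0.12 to 0.33 in the Gent+Fos OE libraries. The log2 fold change between the groups had a rho of 0.378 with gene length. Values without Gent replicate 2 are given where they change a call or a direction of the keratins. The groups were compared over the 17155 genes with enough reads by the quasi-likelihood test of edgeR, with p-values adjusted by the Benjamini-Hochberg method. Called genes had an adjusted p below 0.01 and a log2 fold change beyond 0.25 in either direction, the limits of the study. Every log2 fold change is Gent+Fos OE over Gent. CPM values are scaled by the TMM method, which corrects for library composition, and RPKM values are these CPM per kilobase of exon.

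Keratin genes lie in 2 clusters in the mouse, with 27 of the 54 on chromosome 11 (type I) and 27 on chromosome 15. Krt18, although of type I, lies on chromosome 15 beside its partner Krt8. On mm10, Krt8 (ENSMUSG00000049382) spans 101996698 to 102004482 on the minus strand in 9 merged exons, and Krt18 (ENSMUSG00000023043) spans 102028180 to 102032027 on the plus strand in 7. The genes point away from each other and 23697 bases separate them. Krt7 (101411043 to 101430313), Krt80 (101347444 to 101370162) and Krt5 (101707070 to 101712898) are on the same chromosome. Krt14 (100203162 to 100207548), Krt15 (100131758 to 100135928), Krt17 (100256217 to 100261029), Krt19 (100140810 to 100148665) and Krt23 (99477974 to 99493137) are on chromosome 11.

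The sequences before Krt8 and Krt18 are shown because the levels of these genes moved together between libraries. They are the parts of the RefSeq promoter windows (GRCm38.p6) that precede the first annotated base of each gene, chr15:102004483-102004592 on the minus strand for Krt8 and chr15:102027966-102028179 on the plus strand for Krt18. Capitals would mark the AP-1 consensus TGANTCA, the element bound by Fos with its partners, and neither stretch holds one.
Krt8: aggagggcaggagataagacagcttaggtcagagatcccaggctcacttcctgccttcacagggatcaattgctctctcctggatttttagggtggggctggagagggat
Krt18: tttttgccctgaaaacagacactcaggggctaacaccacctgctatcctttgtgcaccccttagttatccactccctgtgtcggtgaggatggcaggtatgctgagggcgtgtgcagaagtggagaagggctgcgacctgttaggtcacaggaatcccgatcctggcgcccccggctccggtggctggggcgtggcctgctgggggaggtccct
Over the full windows, from 250 bases before to 50 after the RefSeq start, sequences were found for 6 of the 10 genes (Krt5, Krt7, Krt8, Krt14, Krt18 and Krt23). None of the 6 held TGANTCA or the related element TGACGTCA on either strand. Of all 32851 promoter windows, 7.81% held the first and 1.79% the second. These letters can lie outside the window, and the absence of a match says nothing about binding elsewhere.

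Per kilobase, the 10 genes spanned more than 3 orders of magnitude. Krt8 had 318 ± 97.8 RPKM (SD, n = 4) in Gent+Fos OE and 193 ± 59.6 RPKM (SD, n = 3) in Gent, and Krt18 had 304 ± 95.6 and 235 ± 82.0 RPKM. By mean RPKM, 0.624% of the tested genes lay above Krt8 and 0.6% above Krt18. Krt19 and Krt7 followed, at 26.8 ± 1.5 and 21.9 ± 9.67 RPKM in Gent+Fos OE and at 13.1 ± 6.66 and 16.3 ± 5.79 RPKM in Gent. Krt8 was the higher of the pair in every Gent+Fos OE library and Krt18 in every Gent library, with 1.05 ± 0.0172 (SD, n = 4) and 0.826 ± 0.0406 (SD, n = 3) Krt8 RPKM per Krt18 RPKM. This order rests on a level of Krt8 that may be understated in every library, since reads shared with a near-identical copy of the gene were not counted. Krt19 and Krt7 did not differ beyond their spread in RPKM, and the gap between them and the first pair exceeded the spread. This closeness depends on length, since the counted exons of Krt7 hold 7049 bases and its longest coding transcript 4094. For Krt19 these lengths are 1855 and 1576, and for Krt80 6393 and 3919. By reads Krt7 was above Krt19, at 155 against 49.7 CPM in Gent+Fos OE and at 115 against 24.2 CPM in Gent. Krt23 (3.11 ± 1.04 and 2.95 ± 0.827 RPKM) and Krt80 (1.23 ± 0.586 and 0.887 ± 0.210 RPKM) were lower. Krt17, Krt15, Krt5 and Krt14 had means of 0.56, 0.279, 0.0883 and 0.0618 RPKM in Gent+Fos OE and of 1.00, 0.207, 0.212 and 0.0548 RPKM in Gent. The 4 simple keratins made up 97.60% to 98.56% of all keratin reads in a library, and keratins of any kind made up 0.0698% to 0.191% of all reads.

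**Figure D1:**
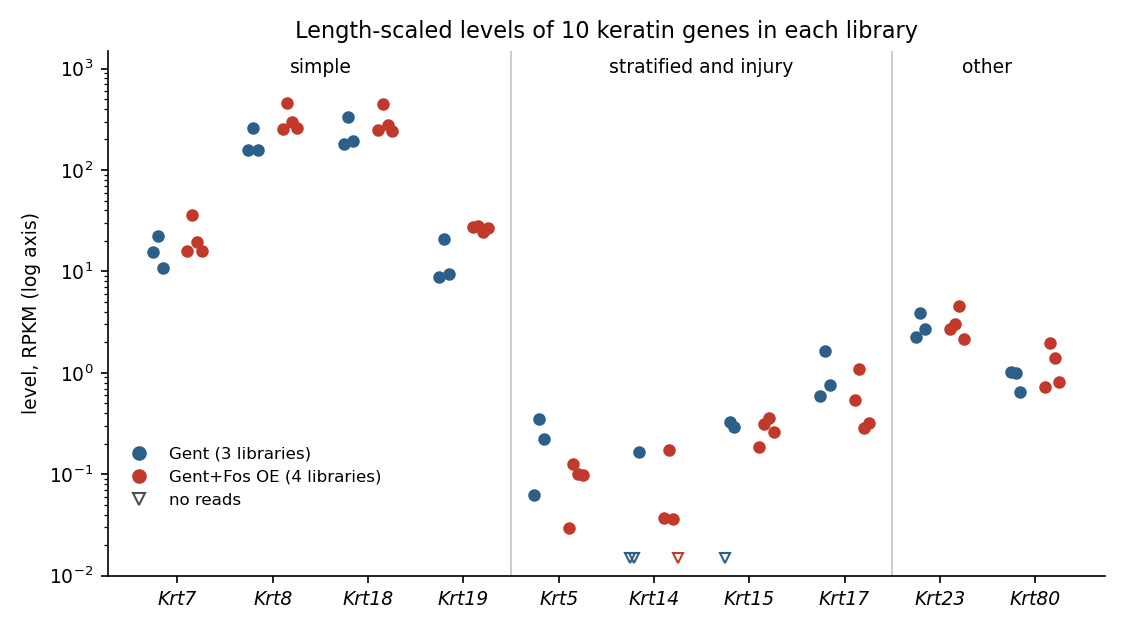
Level of each of the 10 keratin genes in each library, in RPKM on a log axis, with Gent libraries in blue and Gent+Fos OE libraries in red, and open triangles for libraries with no reads. Krt8 and Krt18 lie above 100 RPKM in all 7 libraries, and Krt5, Krt14, Krt15 and most Krt17 values lie under 1 RPKM.

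Of the 10 members, 8 had enough reads to be tested and 0 were called by edgeR, against 0.134% of all tested genes called higher and 0.28% called lower. At an unadjusted p under 0.05, 2 of the 8 were higher (Krt8 and Krt19) and 0 were lower, and the same limit was met by 11.1% of all tested genes in the higher direction. The median log2 fold change was 0.42 over the 8 members, 0.58 over the 4 simple keratins and -0.21 over the 2 tested keratins of the stratified and injury set (Krt15 and Krt17), where all tested genes had a median of 0.00. Because the members were chosen with results of these libraries known, these medians carry no test. Without Gent replicate 2 the median was 0.86 over the simple keratins and turned to 0.29 over Krt15 and Krt17, and without Gent+Fos OE replicate 2 the medians were 0.30 and -0.52. With trends with gene length taken out of each library these medians were 0.74 and 0.01.

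Krt19, the smallest keratin and a type I partner in many simple epithelia, was at 50.5, 52.5, 45.8 and 50.0 CPM in Gent+Fos OE replicates 1 to 4 and at 16.5, 38.5 and 17.6 CPM in Gent replicates 1 to 3. The groups did not overlap, and the Gent+Fos OE libraries were close to each other. The log2 fold change was 1.04 ± 0.26 (SE, edgeR adjusted p = 0.0745), which missed the limit. Permuting the libraries (exact permutation test on log2 CPM, two-sided) gave p = 0.0286, the smallest value that 4 against 3 libraries allow. This permutation p is unadjusted, as are those printed below, and it was 0.229 after Benjamini-Hochberg adjustment over the 8 tested members. Krt19 was the only 1 of the 8 tested members without overlap between the groups, and 11.3% of all tested genes were likewise higher without overlap. In pooled tissue, fewer cells of a type and less RNA per cell cannot be told apart, here and in all values that follow.

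The call on Krt19 turned on the fit and on Gent replicate 2, the highest Gent library. Without this library its log2 fold change was 1.54 (edgeR adjusted p = 9.75e-05) and it was called, as were 0.257% of tested genes in the higher direction. DESeq2, the tool named in the study's methods, called Krt19 (log2 fold change 1.04, adjusted p = 0.00427), with 1.3% of its tested genes called higher. It was also called after trends with gene length were taken out of each library (1.24, adjusted p = 0.0089, with 0.204% of genes called higher) and by limma-voom with sample quality weights (1.44, adjusted p = 1.4e-05), a fit that gives less weight to libraries standing apart and that called 3.1% of all tested genes higher. When single libraries were left out, the log2 fold change stayed between 0.83 and 1.54, and over the 18 alternative fits the adjusted p ran from 1.4e-05 to 0.175.

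**Figure D2:**
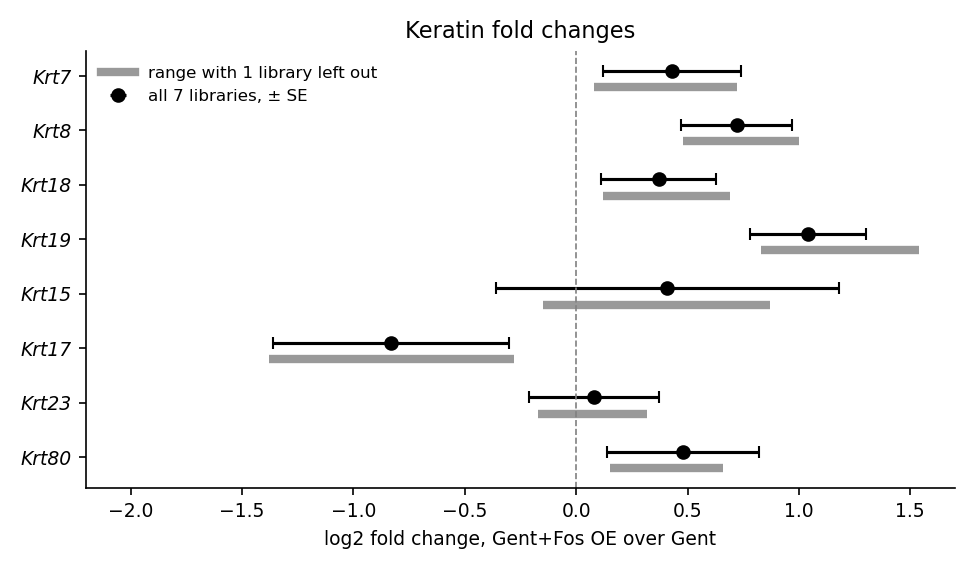
Log2 fold change of the 8 tested keratins, Gent+Fos OE over Gent, as a point with its standard error over the 7 libraries, above a grey bar for the range when single libraries are left out. Krt19 (1.04) and Krt8 (0.72) lie farthest to the right with ranges above 0, and the ranges of Krt15 and Krt23 cross 0.

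Krt8, the type II member of the primary simple pair, was at 498, 904, 579 and 507 CPM in Gent+Fos OE replicates 1 to 4 and at 310, 512 and 311 CPM in Gent replicates 1 to 3. The 4 Gent+Fos OE libraries lay above the median of Gent, and 2 of them lay below Gent replicate 2. Its log2 fold change was 0.72 ± 0.25 (SE, edgeR adjusted p = 0.135, exact permutation p = 0.0857). Of the 18 alternative fits, 1 called it, limma-voom with sample quality weights (0.88, adjusted p = 0.00212). Leaving out single libraries gave 0.48, without Gent+Fos OE replicate 2, to 1.00, without Gent replicate 2. With gene length trends removed the log2 fold change was 0.90 (edgeR adjusted p = 0.0489). A stretch covering 88.6% of the Krt8 transcript has a copy with 97.9% identity on chromosome 7 (GRCm39), and 5.16% of its exonic bases overlap another gene. Reads that fit both copies were not counted, so the level of Krt8 may be understated in every library.

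Krt18, the type I partner of Krt8, was at 356, 640, 404 and 349 CPM in Gent+Fos OE and at 261, 474 and 280 CPM in Gent. Gent+Fos OE replicate 2 was the only library of its group above Gent replicate 2. The log2 fold change was 0.37 ± 0.26 (SE, edgeR adjusted p = 0.385, exact permutation p = 0.314) and moved from 0.12 to 0.69 with single libraries left out. It was 0.58 with gene length trends removed. Krt18 has no copy elsewhere in the genome of at least 100 bases with at least 95% identity. Krt7, a type II keratin of ducts and linings, was at 113, 255, 139 and 112 CPM in Gent+Fos OE and at 110, 158 and 76.3 CPM in Gent. The groups overlapped, with a log2 fold change of 0.43 ± 0.31 (SE, edgeR adjusted p = 0.403) that was 0.08 without Gent+Fos OE replicate 2. With gene length trends removed the value of Krt7 was 0.23. Of its exonic bases, 1.09% overlap another gene.

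Gent+Fos OE replicate 2 and Gent replicate 2 were the highest libraries of their groups for Krt7, Krt8, Krt18 and Krt19, and also for Krt5 and Krt17. Within Gent+Fos OE the SD was 44.1%, 30.8% and 31.5% of the mean for Krt7, Krt8 and Krt18 and 5.61% for Krt19. Within Gent it was 51.1% for Krt19. Epcam, a surface protein of epithelial cells, was at 659 to 828 CPM in Gent+Fos OE and at 619 to 778 CPM in Gent. Per Epcam read, Krt19 had 0.0767, 0.0634, 0.0556 and 0.0693 reads in Gent+Fos OE and 0.0267, 0.0546 and 0.0227 in Gent, and the groups did not overlap. Per Epcam read, Krt8 had 0.703 to 1.09 reads in Gent+Fos OE against 0.399 to 0.727 in Gent, and the groups overlapped.

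The balance between Krt8 and Krt18 was tighter than the level of either gene. The number of Krt8 reads per Krt18 read was 1.40, 1.41, 1.43 and 1.45 in Gent+Fos OE replicates 1 to 4 and 1.19, 1.08 and 1.11 in Gent replicates 1 to 3. All Gent+Fos OE libraries lay above all Gent libraries, with 1.43 ± 0.0230 (SD, n = 4) against 1.13 ± 0.0556 (SD, n = 3), although the level of each gene varied more widely within a group. Such a ratio within a library does not depend on library scaling. On the log2 scale the fold change of Krt8 exceeded that of Krt18 by 0.35, and by 0.30 to 0.38 under the 18 alternative fits, with 0.31 when gene length trends were removed and 0.31 without Gent replicate 2. This ratio was picked after its values were seen and was given no test. Per kilobase, the summed type II simple keratins (Krt7 and Krt8) stood at 0.985 to 1.05 of the summed type I simple keratins (Krt18 and Krt19) in Gent+Fos OE and at 0.81 to 0.913 in Gent. The part of Krt7 in this sum depends on the exonic length used.

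**Figure D3:**
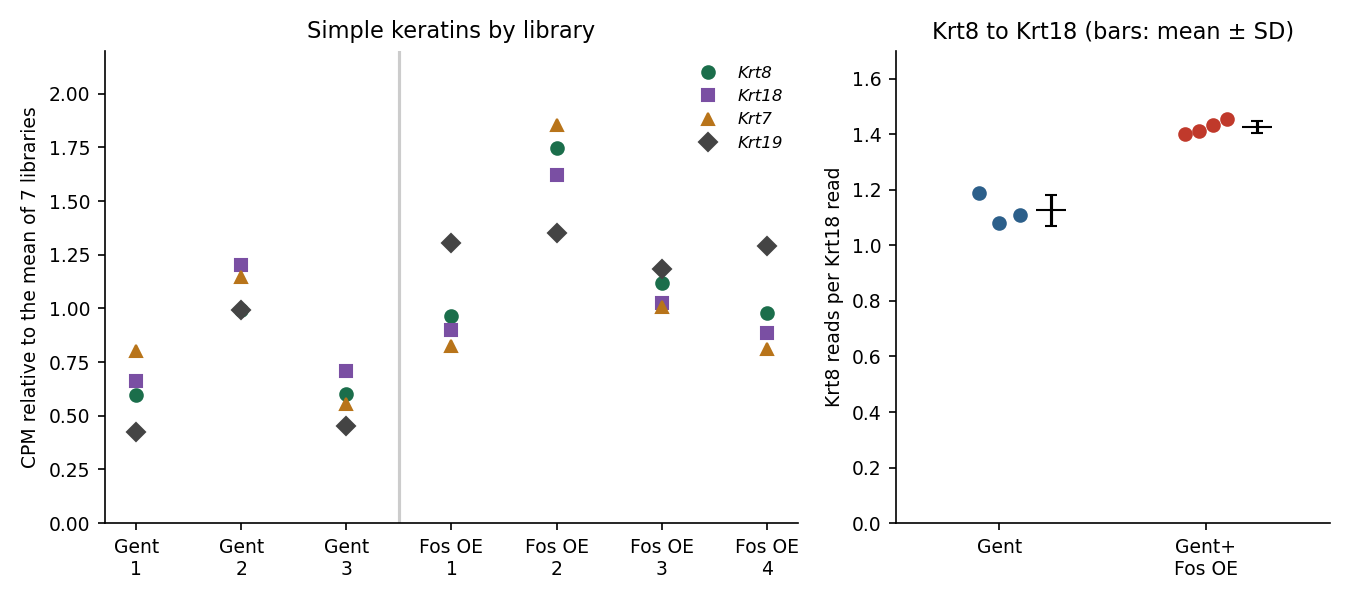
Left, CPM of Krt8, Krt18, Krt7 and Krt19 in each library divided by the mean of the gene over the 7 libraries, with Gent libraries left of the line and Gent+Fos OE libraries right of it. Right, Krt8 reads per Krt18 read in each library with the mean ± SD of the group, where the Gent+Fos OE libraries sit at 1.40 to 1.45 and the Gent libraries at 1.08 to 1.19.

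The keratins of stratified and injured skin gave few reads. Krt17 had 26, 55, 14 and 14 reads in Gent+Fos OE replicates 1 to 4 and 27, 80 and 41 in Gent replicates 1 to 3, which is 0.443 to 1.68 CPM and 0.924 to 2.56 CPM. The groups overlapped, and the log2 fold change was -0.83 ± 0.53 (SE, edgeR adjusted p = 0.344). It ran from -1.38, without Gent+Fos OE replicate 2, to -0.28, without Gent replicate 2. Krt15 had 10, 18, 20 and 13 reads in Gent+Fos OE and 0, 18 and 18 in Gent, a log2 fold change of 0.41 ± 0.77 (SE, edgeR adjusted p = 0.758) that was -0.15 without Gent replicate 1. A level of 3 reads in Gent replicate 1 would be 0.103 CPM.

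Krt5 and Krt14, the basal pair, had too few reads to be tested in the main edgeR fit. Krt5 had 2, 9, 7 and 6 reads in Gent+Fos OE and 4, 24 and 17 in Gent. Krt14 had 2, 10, 2 and 0 reads in Gent+Fos OE and 0, 0 and 10 in Gent, and in the 3 libraries at 0 a level of 3 reads would be 0.0962 to 0.107 CPM. Both ends of a read pair add 1 count each, so several of these values stand for a handful of fragments, and such limits cover counting error only and are too low where reads come in pairs. In addition, 16.8% of the Krt14 transcript and 9.68% of the Krt17 transcript have copies with at least 95% identity on chromosome 11, and their reads are uncertain. A difference in Krt5 or Krt14 between the groups was not detectable at this depth.

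Set side by side, the 4 simple keratins gave sums of 545, 971, 621 and 544 RPKM in Gent+Fos OE against 364, 634 and 374 RPKM in Gent. The 4 stratified and injury keratins gave sums of 0.797, 1.7, 0.781 and 0.681 RPKM in Gent+Fos OE against 0.658, 2.33 and 1.45 RPKM in Gent. The groups overlapped in both sums. Simple keratins exceeded the stratified and injury keratins 572- to 799-fold in Gent+Fos OE libraries and 259- to 553-fold in Gent libraries, without overlap between the groups, but the denominator rests on 31 to 122 reads per library. With sums of CPM the ratios were 657.2 to 864.3 and 275.6 to 657.1, so that the groups all but touched. No test was made on these sums. On the log2 scale the simple sum differed by 0.56 (0.36 without Gent+Fos OE replicate 2, 0.82 without Gent replicate 2) and the stratified and injury sum by -0.50 (-0.08 without Gent replicate 2, -0.99 without Gent replicate 1).

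Krt23 and Krt80 were low, and the groups overlapped in both. Krt23 was at 4.2, 4.75, 7.16 and 3.39 CPM in Gent+Fos OE and at 3.56, 6.06 and 4.22 CPM in Gent, with a log2 fold change of 0.08 ± 0.29 (SE, edgeR adjusted p = 0.881). Krt80, a keratin that gathers near desmosomes in differentiating epithelia, was at 4.62, 12.7, 9.05 and 5.20 CPM in Gent+Fos OE and at 6.57, 6.31 and 4.13 CPM in Gent. Its 2 highest libraries were of the Gent+Fos OE group and the other 2 overlapped with Gent, with a log2 fold change of 0.48 ± 0.34 (SE, edgeR adjusted p = 0.392) that was 0.15 without Gent+Fos OE replicate 2. Of its exonic bases, 4.11% overlap another gene.

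Outside the 10 members, 44 keratin genes were counted, 10 of them had no read in any library and 43 averaged under 1 CPM. The exception was Krt10, the type I keratin of differentiating epidermis, at 2.95 ± 0.591 CPM (SD) in Gent+Fos OE and 3.96 ± 2.47 CPM (SD) in Gent. Its highest value was 6.73 CPM, in Gent replicate 2, and its log2 fold change was -0.42 ± 0.37 (SE, edgeR adjusted p = 0.494). Of the 6 such genes that were tested, 2 were higher, 4 were lower and 0 were called or had an unadjusted p under 0.05. A list of cornified keratinocyte genes had 6 of 12 tested, with 3 higher, 3 lower and 0 called, and a median of -0.13 that was 0.30 without Gent replicate 2. Krt10 had its lowest value. Its highest value was that of Sprr1a, a precursor of the cornified envelope, with a log2 fold change of 1.39 ± 0.37 (SE, edgeR adjusted p = 0.0837), while Sprr1b and Sprr2h had no reads.

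Genes of the junctions that anchor keratin filaments were mostly higher in mean without passing the limits. Of 19 listed desmosome and hemidesmosome genes 17 were tested, 16 had a log2 fold change above 0 and 1 (Cd151) below, and 0 were called. Their median log2 fold change was 0.47 (0.27 without Gent+Fos OE replicate 2), and 8 had an unadjusted p under 0.05, all in the higher direction, beside 11.1% of all tested genes. In 5 of the 17 genes (Ppl, Dsp, Evpl, Plec and Perp) the groups did not overlap, with Gent+Fos OE higher, beside 11.3% of all tested genes. The summed level of the list was 1555 to 2046 CPM in Gent+Fos OE and 1241 to 1442 CPM in Gent. Ppl, which encodes the plakin periplakin, was at 71.9 ± 23.6 CPM (SD, n = 4) and 28.8 ± 1.48 CPM (SD, n = 3), with a log2 fold change of 1.32 ± 0.22 (SE, edgeR adjusted p = 0.0167). Dsp, which encodes desmoplakin, the protein that ties keratin filaments to the desmosome, was at 156 ± 52.8 and 77.0 ± 19.0 CPM (log2 fold change 1.02 ± 0.27, SE, edgeR adjusted p = 0.0802) and was named, like Evpl, Plec and Perp, after its value was seen. Cd151, a tetraspanin of hemidesmosomes, had a log2 fold change of -0.12 ± 0.17 (SE, edgeR adjusted p = 0.661). The list holds long genes, with a median exonic length of 6384 bases against 4084 for all tested genes, and its median was 0.26 when gene length trends were removed.

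**Figure D4:**
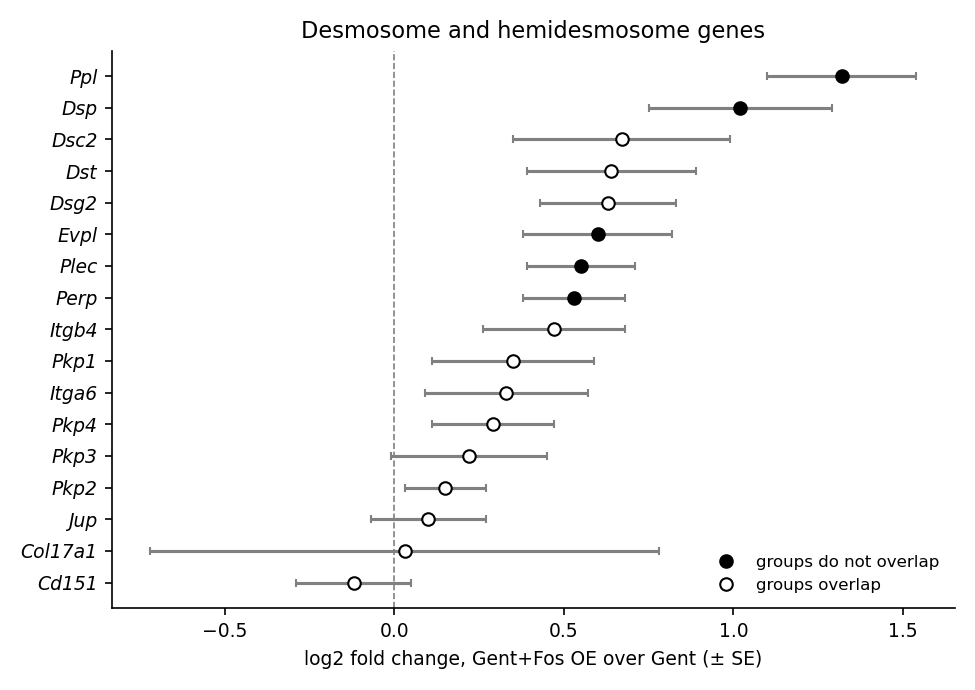
Log2 fold change with its standard error for the 17 tested desmosome and hemidesmosome genes, Gent+Fos OE over Gent, with filled points where the groups do not overlap. Ppl (1.32) and Dsp (1.02) are highest, and Cd151 (-0.12) is the only value below 0.

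The other intermediate filament genes had a median of -0.07 on the log2 scale (0.05 without Gent replicate 2), and of 11 tested genes 4 were above 0, 7 below and 0 called. Gfap, the filament of glia, had a value of -1.97 ± 0.73 (SE, edgeR adjusted p = 0.153) that came with a range of 3.55 to 46.9 CPM in Gent, and Nefm, a neurofilament, had 0.45 (adjusted p = 0.183). Of 14 tested regulators of basal and squamous epithelia, 11 were above 0, 3 below and 0 called, with a median of 0.28 (0.44 without Gent replicate 2). The groups did not overlap in 5 of the 14, with Gent+Fos OE higher (11.3% of all tested genes), and 4 were higher at an unadjusted p under 0.05 (11.1% of all tested genes). Grhl3, a regulator of epidermal barrier formation, had a value of 1.40 ± 0.66 (SE, edgeR adjusted p = 0.217), at 1.20 to 1.78 CPM in Gent+Fos OE and 0.0321 to 0.958 CPM in Gent. It averaged at least 1 CPM only through Gent+Fos OE. The 3 values below 0 were those of Tfap2a (-0.59), Trp63 (-0.51) and Ovol2 (-0.07), of which the first 2 averaged under 1 CPM and were named after their values were seen. Ehf, an epithelial transcription factor named after its value was seen, was at 9.65 ± 1.44 and 4.67 ± 0.414 CPM without overlap, with a value of 1.05 ± 0.18 (SE, edgeR adjusted p = 0.0212).

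General epithelial genes gave a summed level of 1883 to 2656 CPM in Gent+Fos OE and 1729 to 2194 CPM in Gent, and of 14 tested genes 10 were above 0 and 0 were called (median 0.15, and 0.06 without Gent+Fos OE replicate 2). Cdh1, the adhesion protein E-cadherin, had the highest value at 0.77 ± 0.22 (SE, edgeR adjusted p = 0.101), and Cldn3, a tight junction protein, had the lowest at -0.41. Hair cell markers summed to 1078 to 1323 and 884 to 1084 CPM with overlap, and of 10 tested genes 0 were called. They ran from Ptprq (0.98) to Espn (-0.32), both of the hair bundle. Of the 10, 7 were above 0 and 3 below, with a median of 0.16 that was 0.02 when gene length trends were removed. At an unadjusted p under 0.05, 4 were higher and 0 lower, beside 11.1% of all tested genes in the higher direction. Markers of nonsensory and dark cells summed to 966 to 1092 and 964 to 1070 CPM (10 of 10 tested, 0 called), from the ion transporter Slc12a2 (0.44) to the chloride channel subunit Bsnd (-0.70). Of 9 tested supporting cell markers 5 were higher and 4 lower (median 0.01 on the log2 scale). Of these 1 was called higher, beside 0.134% of all tested genes. It was Otog, a protein of the membranes over the sensory epithelium (log2 fold change 1.25 ± 0.18, SE, edgeR adjusted p = 0.00851). The summed level of the list was 2171 to 2781 CPM in Gent+Fos OE and 1698 to 2073 CPM in Gent. Without Otog the sum was 1280 to 1426 and 1253 to 1607 CPM with overlap. Tectb, which encodes a tectorin and was named after its value was seen, had a log2 fold change of -1.39 ± 0.27 (SE, edgeR adjusted p = 0.0348).

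Markers of macrophages and melanocytes were lower in Gent+Fos OE without overlap of their summed levels. The 10 macrophage markers summed to 1046 to 1726 CPM in Gent+Fos OE and 1878 to 2366 CPM in Gent, with 9 of 10 lower and 0 called, from Mrc1 (0.05) to Aif1 (-0.97, edgeR adjusted p = 0.078). Of the 10, 8 were lower at an unadjusted p under 0.05, a limit met in that direction by 13.4% of all tested genes. The 8 melanocyte markers summed to 49.1 to 53.6 and 99.9 to 136 CPM, all were lower in mean, and Tyrp1 (-1.87), Dct (-1.40) and Trpm1 (-1.96) were called, beside 0.28% of all tested genes called lower. Mesenchyme (7058 to 10582 and 8720 to 12646 CPM), endothelium (133 to 179 and 145 to 209 CPM) and Schwann cell and glial markers (274 to 351 and 287 to 304 CPM) overlapped between the groups, with 0 called. Among genes averaging 1 CPM or more, the highest and lowest log2 fold changes were 0.31 (Pdgfra) and -0.70 (Lum) in mesenchyme and 0.77 (Cdh5) and -0.29 (Emcn) in endothelium, and the highest among Schwann cell and glial markers was 0.54 (Erbb3). The part of these cells in the keratin values was not tested.

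The tested genes outside the members whose levels were most like those of Krt8 over the 7 libraries were Cdsn, Ttc39a, Col18a1, 1700001K23Rik and Nyap1. Several were low, with 1700001K23Rik at 0.457 and 0.233 CPM in Gent+Fos OE and Gent, where Krt8 was at 622 and 377 CPM. Cdsn was at 3.88 and 2.44 CPM and Ttc39a at 3.16 and 1.73 CPM. Likeness was taken as the root mean square difference of log2 CPM after centring each gene on its mean, which was 0.12 for Cdsn, 0.13 for Ttc39a and 0.16 to 0.17 for the other 3. Among the members, Krt18 (0.17) and Krt7 (0.24) were nearest to Krt8 and Krt15 (0.94) was farthest. For Krt17 the nearest genes were Spdya (0.28), Pirt, Stc2, Upp1 and Parail (0.35), all at low levels, and the nearest member was Krt18 (0.72). All these values share the same 7 libraries and are a description.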

How the data were processed

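RNA-seq counts of 7 libraries were analysed. The authors deposited raw read counts per gene, without normalization, made per the file headers by featureCounts 2.0.6 on exons of an mm10 annotation, without strand, multi-mapping reads or reads that hit several genes, and with both reads of a pair counted separately. The submitters' processing notes name Trim Galore 0.6.10, HISAT2 2.2.1 and DESeq2 1.34.0, and the study's methods name mm39. Symbols were taken from GENCODE vM39 by Ensembl ID (31674 of 32285 genes). Exonic bases are shared with another gene in 7892.

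The main comparison used edgeR 4.0.16 (filterByExpr, TMM, quasi-likelihood F-test, no covariate) under R 4.3.3, and alternatives used DESeq2 1.42.0 and limma 3.58.1. Plots were made with matplotlib 3.10.9 in Python 3.11.15. RPKM is TMM-scaled CPM divided by the deposited exonic length in kilobases. Log2 CPM for permutation tests and likeness used a prior count of 2. Members and gene lists were chosen with earlier results of these data known. Text names all members, other keratins that were called or averaged at least 1 CPM, and of each list the called genes or else its highest and lowest log2 fold change among genes of at least 1 CPM, the 5 genes most like Krt8 and like Krt17, and Fos. A gene named by this rule is not reported here. The pipeline was tested on simulated data. Transcripts were searched against GRCm39 with blastn for copies of at least 100 bases and 95% identity. The labels number biological replicates and each is a pool of 12 utricles. Alternatives were DESeq2 (genes with at least 10 counts in total), limma-voom without and with quality weights, RLE and upper quartile scaling, a loess gene length offset (span 0.3), blocking on the replicate number with or without this offset, each library left out, and 2 other filters (none, or 10 counts in each library). Halved counts were added after seeing the data.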

Additional observations from a re-analysis of the deposited data

How the results depend on the processing

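The number of members called was 0 in both directions in edgeR. In the higher direction it was 1 with DESeq2, 1 with the gene length offset, 2 with limma-voom with sample quality weights, and 0 to 1 with single libraries left out (1 without Gent replicate 2). It was 0 in the lower direction under every alternative. The log2 fold change of Krt15 was -0.15 without Gent replicate 1, ran to 0.87 with single libraries left out and was 1.43 with limma-voom (adjusted p = 0.376). That of Krt23 was -0.17 without Gent+Fos OE replicate 3 and -0.07 without Gent replicate 1, and ran to 0.32. The other 6 tested members kept their sign under all 18 alternatives. Krt15 was not kept with at least 10 counts in every library or with halved counts.

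Over all genes, 71 were called (23 higher, 48 lower). The counts were 600 with DESeq2 (273 higher, 327 lower), 961 with limma-voom with sample quality weights (531 and 430), 204 without a filter (63 and 141) and 130 with the gene length offset (35 and 95). With single libraries left out they ran from 5 to 138 (2 to 45 higher and 3 to 93 lower), lowest without Gent+Fos OE replicate 3 and highest without Gent replicate 2. With the replicate number as a block 0 genes were called, and with the block and the gene length offset 48 (17 higher, 31 lower). The labels do not say that a number marks shared animals or days, and deviations of same-numbered libraries correlated at 0.064, -0.038 and 0.032, so the numbers were not taken to pair the libraries. Under the block no member was called. The log2 difference in the summed simple keratins was 0.56, 0.57 with sums of CPM and 0.36 to 0.82 with single libraries left out. That in the stratified and injury keratins was -0.50, -0.48 with sums of CPM and -0.99 to -0.08 with single libraries left out. The depth leaves Krt5, Krt14 and Krt15 with too few reads for a small difference to be seen. The cause of these dependences was not tested.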
